A study of Mus musculus with 14 samples.

Results

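Ly6a, Ly6c1, Ly6c2, Ly6d, Ly6e, Ly6g and Ly6i are 7 mouse genes of the lymphocyte antigen 6 (Ly6) family, and their expression was followed in bone marrow myeloid cells by bulk RNA sequencing. The members were the rows with these gene symbols, and all 7 were found among the 24980 genes of the dendritic cell table and among the 17118 genes of the monocyte and macrophage table. The dendritic cell libraries came from mice given PAM3CSK4 (n = 4), a lipopeptide agonist of the Toll-like receptor 1 and 2 pair, or vehicle (n = 4). Macrophages (n = 3) and monocytes (n = 3) were collected at baseline. The labels state that marrow was taken from Cx3cr1gfp/+ mice, in which 1 of the Cx3cr1 alleles carries green fluorescent protein (GFP), so the cells of every group share that reporter, while the design text calls the treated animals wild type. Dendritic cells were gated on high GFP, MHC class II and CD11c, macrophages on CD169 and high MHC class II without GFP, and in both cases cells with Gr-1 or B220 were discarded. Monocytes were gated on high GFP and CD115 without B220, and cells with low and with high Gr-1 were both kept. Age, sex, dose and interval after dosing are not given in the labels. Nor do they state that each library came from its own animal, so a p-value speaks only of the spread among libraries, and that spread may be technical.

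Ly6 proteins are small, disulfide-rich domains that are held on the outer cell surface by a glycosylphosphatidylinositol (GPI) lipid anchor, and several of them are the classical surface markers by which mouse leukocytes are sorted. The Gr-1 antibody used in the gates binds the products of Ly6g, a neutrophil antigen, and of the Ly6c genes, the monocyte antigen Ly6C. Differences in Ly6c1, Ly6c2 and Ly6g between these populations therefore cannot be told apart from the gates. Ly6a encodes Sca-1, a marker of mouse blood stem cells that interferons also induce. Ly6d marks marrow lymphoid progenitors that are set toward the B cell lineage and is also found on progenitors of plasmacytoid dendritic cells. Ly6e is broadly expressed, interferon-inducible and known for its effects on virus entry.

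The members lie together on chromosome 15 (mm10, coordinates as deposited). From left to right these are Ly6d (chr15:74762056-74763568, minus strand), Ly6e (chr15:74955051-74959906, plus), Ly6i (chr15:74979534-74983431, minus), Ly6a (chr15:74994877-74998032, minus), Ly6c1 (chr15:75044018-75048838, minus), Ly6c2 (chr15:75108161-75111972, minus) and Ly6g (chr15:75155261-75159129, plus). How alike they are bears on how reads could be assigned to them. The coding sequences of Ly6c1 and Ly6c2 were 97.7% identical, with 9 mismatches and no gap. Ly6a was 86.4% identical to Ly6i and 83.2% identical to Ly6g. Ly6d and Ly6e were each 48.5% to 53% identical to the other members. The first 90 coding bases of the last coding exon are printed for 6 members, 5′ to 3′, because they place the near-identical pair beside its relatives and beside Ly6d. Capitals mark bases that differ from Ly6c2 at the same place, and Ly6d has none because it was not aligned. The windows lie at chr15:75108662-75108751 (Ly6c2, minus), chr15:75045521-75045610 (Ly6c1, minus), chr15:75158522-75158611 (Ly6g, plus), chr15:74995390-74995479 (Ly6a, minus), chr15:74980042-74980131 (Ly6i, minus) and chr15:74762499-74762588 (Ly6d, minus) in the GENCODE M21 annotation of the same build.
Ly6c2: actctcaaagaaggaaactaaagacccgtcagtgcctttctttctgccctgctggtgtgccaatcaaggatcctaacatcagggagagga
Ly6c1: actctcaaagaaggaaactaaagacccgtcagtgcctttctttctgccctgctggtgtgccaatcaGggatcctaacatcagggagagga
Ly6g: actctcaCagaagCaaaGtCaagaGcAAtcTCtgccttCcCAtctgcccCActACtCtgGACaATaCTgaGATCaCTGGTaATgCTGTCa
Ly6a: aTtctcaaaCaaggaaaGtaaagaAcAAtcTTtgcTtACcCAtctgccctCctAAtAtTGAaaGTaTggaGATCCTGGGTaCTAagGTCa
Ly6i: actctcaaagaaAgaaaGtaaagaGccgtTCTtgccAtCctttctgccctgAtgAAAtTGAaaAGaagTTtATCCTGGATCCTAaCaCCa
Ly6d: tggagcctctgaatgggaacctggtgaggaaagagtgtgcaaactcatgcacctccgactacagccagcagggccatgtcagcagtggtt

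In these windows Ly6c1 differed from Ly6c2 at 1 base of 90, Ly6i at 35, Ly6a at 39 and Ly6g at 40. Over whole transcripts, 36.7% of the 50-base stretches of Ly6c1 and 33% of those of Ly6c2 also occurred in a transcript of another gene. The share was 10% for Ly6a, 4.97% for Ly6i, 0.448% for Ly6g and 0% for Ly6d and Ly6e. With 75-base stretches the shares of Ly6c1 and Ly6c2 were 23.2% and 21.9%. The values of Ly6c1 and Ly6c2 are therefore uncertain as to which gene their reads belong to, and their sum is given beside each. A noncoding RNA gene of RefSeq, Gm28068 (chr15:74966931-75043885), spans Ly6i and Ly6a. Only the spans of the genes were compared, not their exons, and the setting for strand is not given. Whether reads of Gm28068 were counted for Ly6i or Ly6a is therefore not known.

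**Figure D1:**
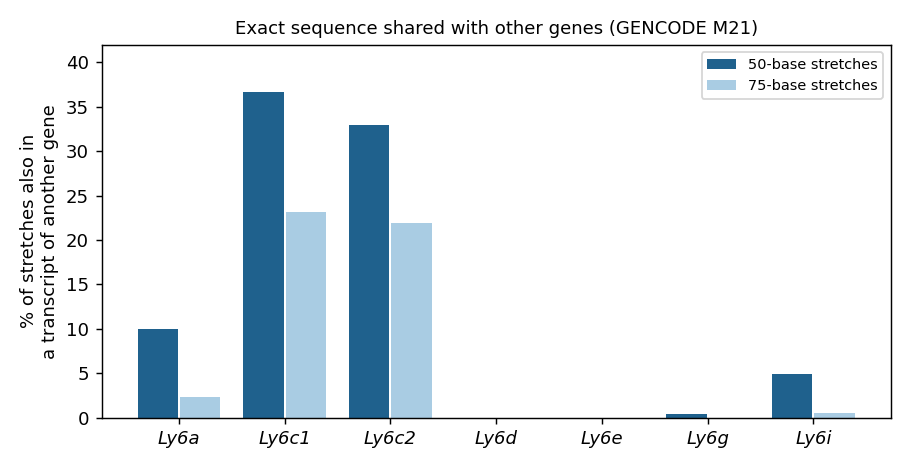
Share of each member's exact stretches of 50 bases (dark bars) and 75 bases (light bars) that also occur in a transcript of another gene, in percent on the vertical axis. Ly6c1 and Ly6c2 stand at 36.7% and 33% for 50 bases, and Ly6d and Ly6e at 0%.

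Values are CPM, reads scaled to a library total with no division by gene length, so a member is compared between samples and not with another member. Most low values lay on steps of 1 read or fragment. A value of 1 CPM was worth 28.2 to 71.6 steps with dendritic cells and 33.4 to 75.2 with macrophages and monocytes. Among dendritic cell values under 200 steps, 1 of 5 lay on a whole step for Ly6a, 4 of 8 for Ly6i and 2 of 7 for Ly6c1. The counts were 4 of 4 for Ly6d and 6 of 6 for Ly6g. With macrophages and monocytes the count for Ly6a was 3 of 3. Whether reads of Ly6a were split between genes was not tested. In dendritic cells, H2-Ab1 and the summed dendritic cell markers were below the vehicle range in all 4 PAM3CSK4 libraries. H2-Ab1, an MHC class II gene, had 948, 995, 1401 and 194 CPM in PAM3CSK4 libraries 1 to 4, against 1878 to 3155 CPM with vehicle. The 14 dendritic cell markers summed to 6623, 6222, 7505 and 1013 CPM with PAM3CSK4, against 13230 to 16430 CPM with vehicle. Of these markers 3 of 14 fell and 0 rose in the limma test described next, 12 had an unadjusted p under 0.05, and the median log2 change was -1.64. Cd209a, a C-type lectin gene, was among those that fell, at 3.12 ± 4.40 CPM with PAM3CSK4 and 391 ± 49.9 CPM with vehicle (SD, n = 4 each). The PAM3CSK4 library numbered replicate 4 stood further apart. It had 27.5 CPM of Itgax, which encodes CD11c, against 181 to 283 CPM in the other PAM3CSK4 libraries and 170 to 271 CPM with vehicle. Its Cx3cr1 value was 31.3 CPM, against 152 to 209 CPM in the other PAM3CSK4 libraries and 107 to 189 CPM with vehicle. Its neutrophil markers summed to 12340 CPM, against 677, 1661 and 1419 CPM in PAM3CSK4 replicates 1, 2 and 3 and 627 to 1103 CPM with vehicle. The macrophage libraries held 18.6 to 25.2 CPM of Siglec1, the gene of the CD169 used to sort them, which overlapped the 2.2 to 34.7 CPM of monocytes. Of the 14 macrophage markers tested in limma, Siglec1 among them, 6 were higher and 1 was lower in macrophages than in monocytes. The median log2 change of these markers was 1.27. Plasma cell markers summed to 2462, 554 and 8405 CPM in macrophage libraries, against 125 to 212 CPM in monocytes.

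Ly6d and Ly6a rose with PAM3CSK4 in dendritic cells. On log2(CPM + 1), limma put 2 of the 5 members that reached 1 CPM in at least 4 libraries past an adjusted p of 0.05, both higher, against 5.12% of all 11377 genes tested in either direction, 2.82% in the higher and 2.29% in the lower direction. The median log2 change was 0.59 over the 5 members and 0.20 over all genes tested. Ly6c1 and Ly6g did not reach the filter. Ly6d reached it through the PAM3CSK4 libraries, where it was high, since only vehicle replicate 4 held at least 1 CPM. With no filter on low values 0 members passed. In 2 of the 5 members, again Ly6d and Ly6a, every PAM3CSK4 library lay above every vehicle library. Of all genes tested, 10.1% parted in this direction, 4.68% in the other and 14.8% in either. For Ly6d and Ly6a this restates the values that gave the calls and is no separate support. As in any bulk sample, a share of cells of another type and a level per cell cannot be told apart in these values. The summed dendritic cell markers were lower in each of the same PAM3CSK4 libraries. Itgax, 1 of these markers, was not below the vehicle range in PAM3CSK4 replicates 1 to 3, at 277, 181 and 283 CPM. The part of dendritic cell content in the Ly6d and Ly6a results was not tested.

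**Figure D2:**
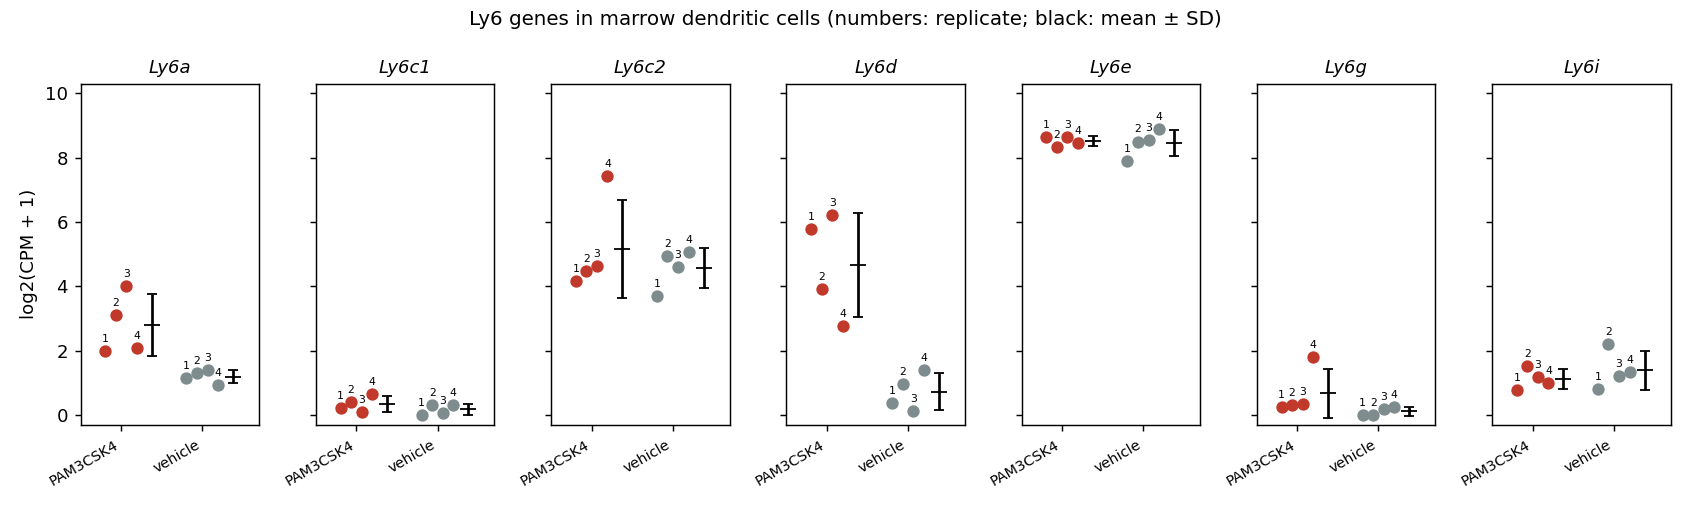
The 7 Ly6 genes in dendritic cell libraries, as log2(CPM + 1), with PAM3CSK4 points (red) left of vehicle points (grey), replicate numbers above the points, and the mean ± SD in black (n = 4 each). The PAM3CSK4 and vehicle points of Ly6d and Ly6a do not overlap, and PAM3CSK4 replicate 4 lies above the other libraries for Ly6c2 and Ly6g.

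Ly6d changed most among the members. PAM3CSK4 libraries 1 to 4 held 53.6, 14.1, 73.5 and 5.82 CPM, against 0.307, 0.950, 0.102 and 1.67 CPM in vehicle libraries 1 to 4. The groups did not overlap, although PAM3CSK4 replicates 1 and 3 were far above replicates 2 and 4. The means were 36.7 ± 32.2 CPM with PAM3CSK4 and 0.758 ± 0.708 CPM with vehicle (SD, n = 4 each), a ratio of 48.5. The log2 change was 3.94 ± 0.64 (SE; limma adjusted p = 0.0076), and only 3 of the 11377 genes tested had a larger positive one. Vehicle values amounted to 22, 36, 4 and 100 read steps, so Ly6d was detected at a low level in each vehicle library. It stayed past the threshold when any 1 of the 8 libraries was left out, with log2 changes of 3.42 to 4.57, and without PAM3CSK4 replicate 4 the change was 4.57 (limma adjusted p = 6.6e-05). With no filter on low values its adjusted p was 0.062.

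The genes whose profile over the 8 libraries was nearest to that of Ly6d were Siglech, Epha2 and Atp1b1, with a mean absolute difference of 0.59, 0.63 and 0.68 log2 units after each gene was centred on its mean. Siglech, which encodes a surface lectin of plasmacytoid dendritic cells, had 84.8, 18.7, 66.4 and 4.83 CPM with PAM3CSK4, against 1.39, 5.61, 2.62 and 4.45 CPM with vehicle. Epha2, an ephrin receptor gene, had 31.9, 9.0, 42.6 and 4.73 CPM with PAM3CSK4, against 1.13, 2.43, 0.818 and 2.56 CPM with vehicle. Atp1b1, which encodes a subunit of the sodium pump, had 53.9, 10.9, 35.0 and 8.42 CPM with PAM3CSK4, against 1.66, 3.08, 2.49 and 3.34 CPM with vehicle. All of these shared with Ly6d high values in PAM3CSK4 replicates 1 and 3 and lower ones in replicates 2 and 4. These genes were picked for their likeness, so their profiles are a description.

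**Figure D3:**
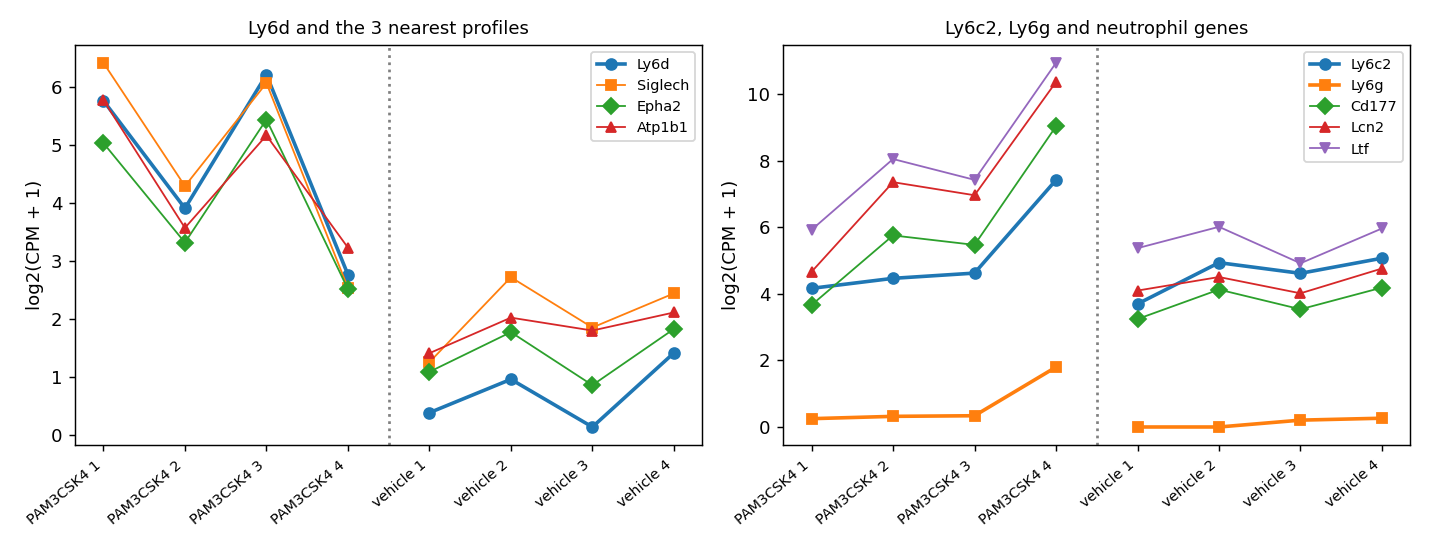
Values per dendritic cell library as log2(CPM + 1), PAM3CSK4 left of the dotted line and vehicle right of it, for Ly6d with Siglech, Epha2 and Atp1b1 (left panel) and for Ly6c2 and Ly6g with the neutrophil genes Cd177, Lcn2 and Ltf (right panel); lines only link the points of a gene. The left set is highest in PAM3CSK4 replicates 1 and 3, and the right set is highest in PAM3CSK4 replicate 4.

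Markers of the cell types that are known to carry Ly6d were read beside it. The 18 plasmacytoid dendritic cell markers summed to 1126, 551, 1246 and 326 CPM with PAM3CSK4, against 429, 755, 800 and 817 CPM with vehicle. Of the 16 that were tested, 5 were higher and 1 was lower in the limma test, with a median log2 change of 0.84. The 13 markers of B cells and their progenitors summed to 116, 62.7, 97.5 and 48.0 CPM with PAM3CSK4, against 45.6, 61.8, 69.5 and 49.2 CPM with vehicle. Both sums were highest in PAM3CSK4 replicates 1 and 3, where Ly6d was highest. For the B cell markers this order held for the sum only. Their mean log2(CPM + 1) was 1.707, 1.425, 1.647 and 1.883 in PAM3CSK4 libraries 1 to 4, highest in replicate 4. Of the 4 B cell markers tested none passed the threshold in limma, with 1 at an unadjusted p under 0.05. Cd79a, a subunit of the B cell receptor, was at 0.363, 0.319, 0.165 and 5.70 CPM with PAM3CSK4, against 0.168, 0.0528, 0.358 and 0.652 CPM with vehicle. Dntt, which encodes the terminal transferase of lymphoid progenitors and stands on the plasmacytoid list, was at 9.22, 1.86, 7.97 and 10.2 CPM with PAM3CSK4, against 0.583, 0.635, 0.861 and 1.15 CPM with vehicle (limma adjusted p = 0.015). That call was lost without vehicle replicate 1, 2 and 3 in turn (adjusted p = 0.066, 0.058 and 0.053) and when low values were not filtered (adjusted p = 0.076). The part of plasmacytoid dendritic cells, B lineage cells and lymphoid progenitors in the Ly6d result was not tested.

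The tested gene nearest to Ly6d moved the same way. Lynx1, another member of the wider Ly6 and uPAR family, which encodes a modulator of nicotinic acetylcholine receptors, ends 9.08 kb to the left of Ly6d on the same strand (chr15:74747856-74752980). It had 14.9, 5.31, 16.9 and 3.6 CPM with PAM3CSK4, against 0.293, 1.32, 2.02 and 1.55 CPM with vehicle, without overlap. Its log2 change was 2.12 ± 0.44 (limma adjusted p = 0.021). The call was lost when vehicle replicate 1, 2, 3 or 4 or PAM3CSK4 replicate 3 was left out (adjusted p = 0.086, 0.066, 0.052, 0.053 and 0.054), and it held without PAM3CSK4 replicate 4 (adjusted p = 0.0014). With no filter on low values its adjusted p was 0.094. From 60 kb left of Ly6d to 60 kb right of Ly6g the table lists 16 further genes, of which 3 were tested and only Lynx1 passed. D730001G18Rik, 7.34 kb to the right of Ly6d and so nearer than Lynx1, was under the filter at 0.0001 to 0.0318 CPM with PAM3CSK4. Ly6k, 33.3 kb to the right of Ly6d, was under the filter at 0.142 to 0.820 CPM with PAM3CSK4 and 0.0001 to 0.106 CPM with vehicle.

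Ly6a had 2.97, 7.71, 15.2 and 3.21 CPM in PAM3CSK4 libraries 1 to 4, against 1.23, 1.49, 1.63 and 0.904 CPM in vehicle libraries 1 to 4. All PAM3CSK4 libraries were above the highest vehicle library. The means were 7.28 ± 5.73 CPM with PAM3CSK4 and 1.31 ± 0.32 CPM with vehicle (SD, n = 4 each), a ratio of 5.55. The log2 change was 1.60 ± 0.40 (limma adjusted p = 0.042), close to the threshold. The call was lost when vehicle replicate 1, 2, 3 or 4 was left out (adjusted p = 0.12, 0.10, 0.093 and 0.11) and without PAM3CSK4 replicate 2 or 3 (adjusted p = 0.088 and 0.078), while the log2 change stayed between 1.20 and 1.87. Without PAM3CSK4 replicate 4 it was 1.85 (adjusted p = 0.0097), and the adjusted p was 0.13 with no filter on low values and 0.065 after median centring.

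Interferon-stimulated genes and markers of stem cells and endothelium are the known company of Sca-1, so they were read beside Ly6a. Of 30 tested interferon-stimulated genes 0 passed the threshold in limma and 7 had an unadjusted p under 0.05, and their median log2 change was -0.31. The 31 listed summed to 375, 721, 663 and 327 CPM with PAM3CSK4, against 598, 680, 506 and 577 CPM with vehicle. Within the PAM3CSK4 libraries this sum and Ly6a were both higher in replicates 2 and 3 than in 1 and 4. That pattern was not particular to the interferon list. Macrophage markers had it as well, with sums of 515, 2796, 1123 and 536 CPM in PAM3CSK4 libraries 1 to 4. The 13 stem and progenitor markers summed to 426, 216, 327 and 326 CPM with PAM3CSK4, against 287, 328, 505 and 389 CPM with vehicle. Their mean log2(CPM + 1) was 2.621 to 3.645 with PAM3CSK4 and 2.493 to 2.759 with vehicle. Of 11 tested in limma, 1 rose and 4 had an unadjusted p under 0.05. The median log2 change was 0.50, against 0.20 over all genes tested. The 12 endothelial markers summed to 80.3, 122, 152 and 50.9 CPM with PAM3CSK4, against 36.6, 35.6, 57.1 and 47.4 CPM with vehicle. Of 6 endothelial markers tested in limma, 2 were higher, 1 was lower and 5 had an unadjusted p under 0.05. Their median log2 change was 0.77. Ly6a and the endothelial sum were both highest in PAM3CSK4 replicate 3. The part of interferon, stem cells and endothelium in the Ly6a result was not tested. The profiles nearest to that of Ly6a were those of 1110032F04Rik, Susd2 and Sipa1l1, at 0.19, 0.21 and 0.23 log2 units.

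Ly6e did not pass the test after PAM3CSK4. PAM3CSK4 libraries 1 to 4 held 399, 318, 395 and 351 CPM, against 239, 362, 373 and 471 CPM in vehicle libraries 1 to 4. The groups overlapped, with means of 366 ± 38.8 CPM with PAM3CSK4 and 361 ± 94.8 CPM with vehicle (SD, n = 4 each). The log2 change was 0.05 ± 0.24 (limma adjusted p = 0.91), and its sign turned with the scaling, at -0.092 with every library scaled to the same total, -0.17 when centred on the median and -0.055 when quantile normalized.

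Of the genes of the Gr-1 antigens, only Ly6c2 was tested in limma, and it did not pass. PAM3CSK4 replicate 4 set the PAM3CSK4 means of Ly6c2 and Ly6g. Ly6c2, the main gene of monocyte Ly6C, had 16.9, 21.1, 23.6 and 170 CPM with PAM3CSK4, against 12.0, 29.6, 23.5 and 32.6 CPM with vehicle. Only PAM3CSK4 replicate 4 lay above the vehicle range. The log2 change of 0.59 ± 0.60 (limma adjusted p = 0.57) turned to -0.16 without that library. Ly6c1 was at 0.173, 0.316, 0.0694 and 0.593 CPM with PAM3CSK4, against 0.238, 0.0539 and 0.255 CPM in vehicle libraries 2 to 4 and the lowest listed value in vehicle library 1. It made up 0.292% to 1.48% of the summed Ly6c1 and Ly6c2 reads with PAM3CSK4 and 0% to 0.797% with vehicle, so the sum followed Ly6c2 (58.2 ± 75 CPM with PAM3CSK4 and 24.6 ± 9.24 CPM with vehicle; SD, n = 4 each). A two-sided exact permutation test of the log2 sum gave p = 0.629 for a difference of 0.59, which was -0.16 without PAM3CSK4 replicate 4.

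Ly6g, which is expressed by neutrophils, was barely detected in dendritic cells, whose gate discarded Gr-1, except in 1 library. It had 0.189, 0.248, 0.264 and 2.48 CPM with PAM3CSK4, against 0.153 and 0.201 CPM in vehicle libraries 3 and 4 and the lowest listed value in vehicle libraries 1 and 2. In PAM3CSK4 replicate 4 this was 162 read steps, and in each other library at most 12. A two-sided exact permutation test gave p = 0.0571 for a difference of 0.56 in mean log2(CPM + 1), where the smallest p that 4 against 4 libraries allow is 0.0286. The same library was the highest in the neutrophil granule genes Lcn2, at 24.3, 163, 124 and 1317 CPM with PAM3CSK4 and 15.2 to 26.1 CPM with vehicle, and Ltf, at 59.7, 264, 171 and 1962 CPM with PAM3CSK4 and 29.2 to 63.6 CPM with vehicle. Cd177, a neutrophil surface protein of the same wider family as Ly6g, followed them with 11.7, 53.0, 43.3 and 522 CPM with PAM3CSK4, against 8.47, 16.5, 10.6 and 17.2 CPM with vehicle (log2 change 2.21, limma adjusted p = 0.13).

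Ly6i, a close relative of Ly6a, had 0.721, 1.86, 1.29 and 1.01 CPM with PAM3CSK4, against 0.743, 3.67, 1.30 and 1.55 CPM with vehicle. The groups overlapped, and the log2 change was -0.27 ± 0.32 (limma adjusted p = 0.62). Without vehicle replicate 2 it was 0.0067.

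Of the wider Ly6 and uPAR family, 32 other genes were listed and 3 were tested, of which Lynx1 rose and none fell. The remaining pair were Cd177 and Plaur, the urokinase receptor gene, which had 3.41 to 35.1 CPM with PAM3CSK4 and 6.31 to 14.98 CPM with vehicle. The genes that build and trim the GPI anchor showed 0 higher and 1 lower of 31 tested, with a median log2 change of 0.17. The 1 that fell was Pgap1, an inositol deacylase of GPI anchors, with 8.10 ± 5.59 CPM with PAM3CSK4 and 26.5 ± 11.6 CPM with vehicle (SD, n = 4 each) and a log2 change of -1.68 ± 0.42 (limma adjusted p = 0.040). Leaving out vehicle replicate 1, 2 or 3 ended that call (adjusted p = 0.11 in each case), as did leaving out PAM3CSK4 replicate 2 or 3 (adjusted p = 0.062 and 0.10) or applying no filter on low values (adjusted p = 0.12).

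**Figure D4:**
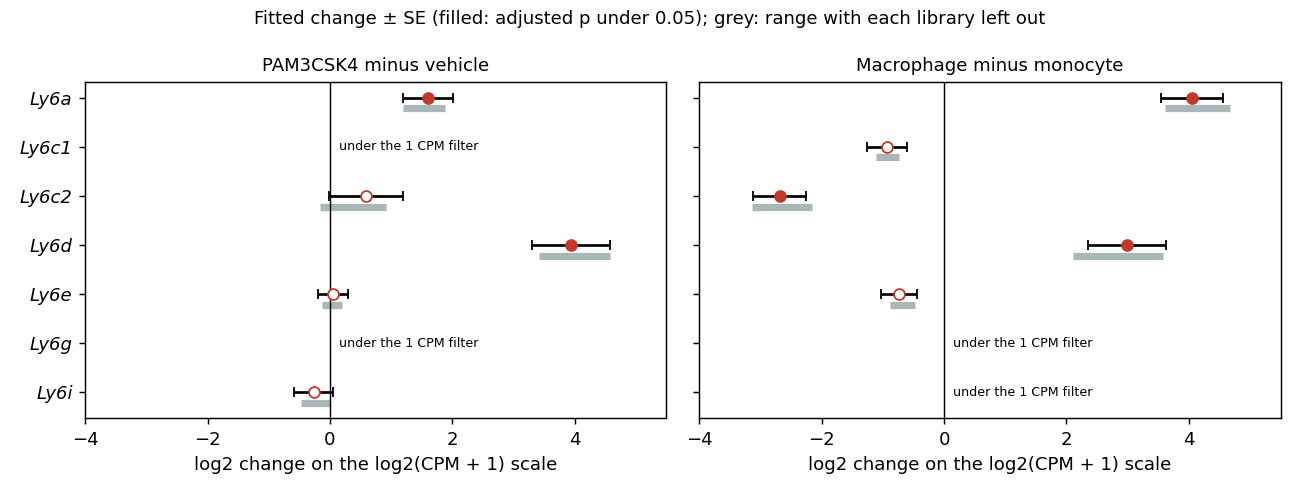
Log2 change ± SE of each member on the log2(CPM + 1) scale, for PAM3CSK4 minus vehicle (left) and macrophage minus monocyte (right), with filled points where the limma adjusted p is under 0.05 and grey bars for the range when each library is left out in turn. Ly6d and Ly6a lie to the right of 0 in both panels, and Ly6c2 lies left of 0 between macrophages and monocytes.

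At baseline, macrophage libraries were higher than monocyte libraries in Ly6a and Ly6d and lower in Ly6c2. Of the 5 members that reached 1 CPM in at least 3 libraries, 2 were called higher and 1 lower by limma, against 12.8% and 7.42% of all 12188 genes tested, or 20.2% in either direction. Ly6d reached that filter through the macrophage libraries, where it was high, since only monocyte replicate 1 held at least 1 CPM. With no filter on low values Ly6a and Ly6d kept their calls (limma adjusted p = 0.0033 and 0.030). The median log2 change was -0.73 over the 5 members and 0.10 over all genes tested. In 2 of them every macrophage library lay above and in 3 below every monocyte library, against 20.4% and 13.8% of all genes tested, or 34.2% in either direction.

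**Figure D5:**
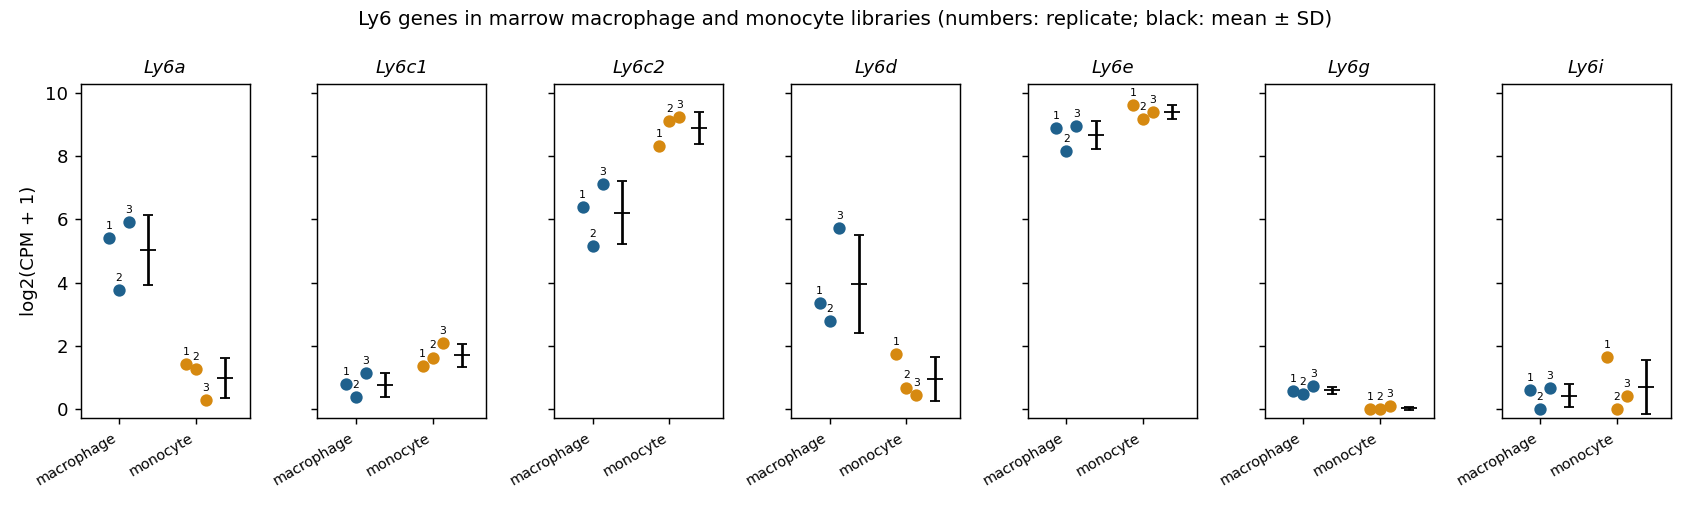
The 7 Ly6 genes as log2(CPM + 1) in macrophage (blue, left) and monocyte (orange, right) libraries, with replicate numbers above the points and the mean ± SD in black (n = 3 each). Macrophage points lie above monocyte points for Ly6a, Ly6d and Ly6g and below them for Ly6c1, Ly6c2 and Ly6e.

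Ly6a had 41.7, 12.7 and 59.2 CPM in macrophage libraries 1 to 3, against 1.66, 1.40 and 0.206 CPM in monocyte libraries 1 to 3. The lowest macrophage library was well above the highest monocyte library. The means were 37.9 ± 23.5 CPM in macrophages and 1.09 ± 0.777 CPM in monocytes (SD, n = 3 each), a ratio of 34.7. The log2 change was 4.05 ± 0.50 (limma adjusted p = 0.00017), and it stayed past the threshold without any 1 of the 6 libraries (3.62 to 4.68). The nearest profiles were those of Ppp3cc, Ablim1 and Ets1, a lymphoid transcription factor gene, at 0.32, 0.34 and 0.36 log2 units over 6 libraries.

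Markers of other marrow cells that express Sca-1 were higher in the same macrophage libraries. The 13 stem and progenitor markers summed to 2102, 1310 and 847 CPM in macrophages, against 493, 661 and 253 CPM in monocytes, and 10 of 13 tested rose. The 13 T and NK cell markers summed to 406, 268 and 153 CPM in macrophages, against 23.1, 29.0 and 11.8 CPM in monocytes, and 12 of 13 rose. The 11 endothelial markers summed to 152, 155 and 111 CPM in macrophages, against 76.9, 92.0 and 46.1 CPM in monocytes, and 6 of 9 tested rose. None of these sums was highest in macrophage replicate 3, where Ly6a was highest. Other sums were highest there, with 111, 103 and 808 CPM for B cell and progenitor markers in macrophage libraries 1 to 3. Plasma cell markers summed to 2462, 554 and 8405 CPM in the same libraries. The part of any of these cells in the Ly6a result was not tested.

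Ly6d had 9.15, 5.88 and 51.6 CPM in macrophage libraries 1 to 3, against 2.37, 0.601 and 0.356 CPM in monocyte libraries 1 to 3. The groups did not overlap, and macrophage replicate 3 was far above the other macrophage libraries. The means were 22.2 ± 25.5 CPM in macrophages and 1.11 ± 1.10 CPM in monocytes (SD, n = 3 each), a ratio of 20.02. The log2 change was 2.99 ± 0.63 (limma adjusted p = 0.0052). Without macrophage replicate 3 it was 2.11 (adjusted p = 0.0022), and it stayed past the threshold without any 1 of the 6 libraries. The nearest profiles were those of Bcar3, Atp1b1 and Myo1e, at 0.18, 0.26 and 0.29 log2 units. Atp1b1 was thus among the 3 nearest to Ly6d in both tables, with 18.3, 14.4 and 95.6 CPM in macrophages, against 8.07, 4.72 and 2.10 CPM in monocytes.

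B lineage markers followed the same libraries. The 13 B cell and progenitor markers summed to 111, 103 and 808 CPM in macrophages, against 37.9, 22.5 and 16.2 CPM in monocytes, and 9 of 10 tested rose with a median log2 change of 2.86. Cd79a was at 25.1, 11.4 and 159 CPM in macrophages, against 0.619, 0.0001 and 0.281 CPM in monocytes. Of the plasma cell markers 6 of 9 tested rose. The sums of both sets were highest in macrophage replicate 3, as Ly6d was. Siglech was lower in macrophages, at 0.743 ± 0.436 CPM, than in monocytes, at 5.94 ± 3.26 CPM (SD, n = 3 each), and Lynx1 overlapped, at 1.5 to 4.6 CPM in macrophages and 1.92 to 4.62 CPM in monocytes. The part of B lineage cells in the Ly6d result was not tested.

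Of the Ly6c genes, Ly6c2 passed the test between macrophages and monocytes. Ly6c2 had 82.2, 34.5 and 137 CPM in macrophage libraries 1 to 3, against 319, 555 and 611 CPM in monocyte libraries 1 to 3. The macrophage gate discarded Gr-1 and the monocyte gate did not, so a difference between the cell types and the effect of the gate cannot be told apart. The log2 change was -2.69 ± 0.43 (limma adjusted p = 0.00096), and the monocyte mean was 5.84 times the macrophage mean. Ly6c1 had 0.711, 0.305 and 1.20 CPM in macrophages, against 1.57, 2.09 and 3.28 CPM in monocytes, and its log2 change was -0.93 ± 0.32 (limma adjusted p = 0.064). It made up 0.857% to 0.878% of the summed Ly6c1 and Ly6c2 reads in macrophages and 0.376% to 0.535% in monocytes. The sum was 85.4 ± 52.0 CPM in macrophages and 497 ± 155 CPM in monocytes (SD, n = 3 each), a log2 difference of -2.68 with p = 0.1 in a two-sided exact permutation test, the smallest that 3 against 3 libraries allow.

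Ly6c2 remained readable in macrophage libraries despite their gate. Genes that mark monocytes went the same way, and 10 of 14 tested fell in macrophages and 0 rose, with a median log2 change of -1.94. Csf1r, which encodes the CD115 of the monocyte gate, had 37.1 ± 14.4 CPM in macrophages and 559 ± 273 CPM in monocytes (SD, n = 3 each). The profile nearest to that of Ly6c2 was that of Mgst1, a microsomal glutathione transferase gene, at 0.22 log2 units, with 10.5 ± 5.01 CPM in macrophages and 53.3 ± 13.5 CPM in monocytes (SD, n = 3 each). That of Ly6c1 was Slc22a4, a carnitine and ergothioneine transporter gene, at 0.059 log2 units.

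Ly6e had 473, 283 and 493 CPM in macrophage libraries 1 to 3, against 793, 575 and 670 CPM in monocyte libraries 1 to 3. Every macrophage library was below every monocyte library. The means were 416 ± 116 CPM in macrophages and 679 ± 109 CPM in monocytes (SD, n = 3 each). The log2 change of -0.73 ± 0.30 did not pass the threshold (limma adjusted p = 0.11), though it did after median centring (-0.86, adjusted p = 0.025). Of 31 interferon-stimulated genes tested, 3 were higher and 2 were lower in macrophages, with a median log2 change of -0.27.

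Ly6g and Ly6i were under the filter. Ly6g had 0.479, 0.396 and 0.639 CPM in macrophages, or 16, 27 and 48 read steps, against the lowest listed value in monocyte libraries 1 and 2 and 0.0564 CPM, or 3 steps, in library 3. The groups did not overlap, and the difference of 0.56 in mean log2(CPM + 1) had p = 0.1 in a two-sided exact permutation test, the smallest possible. Ltf did not overlap either, at 387, 121 and 132 CPM, against 65.7, 13.9 and 17.8 CPM in monocytes, and of 16 neutrophil markers tested 9 were higher and 5 were lower. Mmp8, the neutrophil collagenase gene, was among the lower ones, at 2.60 ± 2.16 CPM in macrophages and 52.9 ± 25.7 CPM in monocytes (SD, n = 3 each). Of the wider Ly6 and uPAR family 4 genes were tested in limma, of which 1 was higher and 2 were lower. Cd177 was lower, at 39.3 CPM in macrophages and 93.1 CPM in monocytes (log2 change -1.35, limma adjusted p = 0.018). So was Plaur (-1.68, limma adjusted p = 0.0033), and Cd59a was higher (1.37, limma adjusted p = 0.0097). Ly6i had 0.518 and 0.578 CPM in macrophage libraries 1 and 3 and 2.16 and 0.338 CPM in monocyte libraries 1 and 3, and the lowest listed value in library 2 of both. The groups overlapped (difference -0.27, p = 0.9 in a two-sided exact permutation test).

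Set beside the other populations, vehicle dendritic cells had the lowest mean for Ly6c2, 24.4 ± 9.12 CPM (SD, n = 4), against 84.7 ± 51.5 CPM in macrophages and 495 ± 155 CPM in monocytes (SD, n = 3 each). For Ly6a the order ran from 37.9 ± 23.5 CPM in macrophages to 1.31 ± 0.32 CPM in vehicle dendritic cells and 1.09 ± 0.777 CPM in monocytes, and the last 2 overlapped. For Ly6d, 22.2 ± 25.5 CPM in macrophages stood above 1.11 ± 1.10 CPM in monocytes and 0.758 ± 0.708 CPM in vehicle dendritic cells, which overlapped. Ly6e had 679 ± 109 CPM in monocytes, 416 ± 116 CPM in macrophages and 361 ± 94.8 CPM in vehicle dendritic cells, and the ranges of the last 2 overlapped. Ly6i had 1.82 ± 1.28 CPM in vehicle dendritic cells and at most 2.16 CPM elsewhere. The dendritic cell values come from another table, which was scaled separately and may assign reads differently, so no test was made across the tables.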

How the data were processed

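RNA was measured in 14 sorted mouse bone marrow libraries made, per the labels' protocols, with ribosomal RNA depletion. The authors deposited 2 tables whose values are named FPKM but are CPM. Less 0.0001, low values were set against whole multiples of 1 step per library, the same step for all genes. Within 0.05 of such a multiple lay 66% to 68.8% of low values (dendritic cells) and 87.7% to 90.6% (others). These shares were not split by gene length. The listed genes held 35% to 57.9% of the total the values were scaled to, and no pair of libraries was identical. The submitters' processing notes name mm10, STAR 2.5.3a and Partek. What each tool did, the annotation and the strand setting were not given in the sources used here. In the table of monocytes and macrophages, 3 columns with names that begin with DC match no single sample and were not used, and a comparison of dendritic cells with the other populations within that table was left out.

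From the CPM values, limma 3.58.1 in R 4.3.3 (lmFit, eBayes with trend) tested log2(CPM + 1) within each table, two-sided, for genes with at least 1 CPM in at least 4 libraries (dendritic cells) or 3 (macrophages and monocytes). P-values were adjusted by Benjamini-Hochberg over all genes tested, with a threshold of 0.05. Members under the filter, and the sum of Ly6c1 and Ly6c2, had exact permutation tests. Log2 changes understate those of low genes. The design had been written before the unit was known, and the same test serves CPM. The members and gene lists were chosen with earlier results of these data known. Named genes were all members, up to 4 genes of each list past the threshold by p, the 3 nearest profiles of each member, the sorting markers, Lcn2 and Ltf; Ly6k, Cd79a, Cd177 and Plaur in dendritic cells and Lynx1 in macrophages were named after their values were seen. Coding sequences and shared stretches came from GENCODE M21, and Gm28068 from RefSeq. Alternatives changed the pseudocount (0.1), the filter (none, or 5 CPM), the scaling and the replicate block, and left out each library. The fit was tested on simulated data, in which only genes well above 1 CPM were changed and both groups had the same spread. That simulation does not cover members near 1 CPM or groups of unequal spread, such as Ly6d and Ly6a.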

Additional observations from a re-analysis of the deposited data

Results flagged for a closer look

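In dendritic cells, Ly6c2 in PAM3CSK4 replicate 4, at 170 CPM, and Ly6g in the same library, at 2.48 CPM, lay farther from the other PAM3CSK4 libraries than Dixon's test allows at the 95% level for 4 samples. Chance alone flags about 1 in 20 groups. The same library had the highest Lcn2 (1317 CPM), Ltf (1962 CPM) and Cd177 (522 CPM) and the lowest Itgax (27.5 CPM) of the PAM3CSK4 libraries. The part of neutrophil RNA in the Ly6c2 and Ly6g values was not tested. Ly6d and Ly6a stayed past the threshold without this library.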

How the results depend on the processing

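Among dendritic cells, 582 genes passed the threshold with PAM3CSK4 against vehicle, 166 with no filter on low values and 153 to 940 when 1 library was left out. The count was 153, 156, 182 and 194 without vehicle replicates 1 to 4, 940 without PAM3CSK4 replicate 1 and 260 without PAM3CSK4 replicate 3. Of the members, 2 passed; 0 did with no filter (Ly6d adjusted p = 0.062, Ly6a adjusted p = 0.13), 1 with a filter at 5 CPM (Ly6d, where Ly6a was not tested), 1 after median centring (Ly6d; Ly6a 1.38, adjusted p = 0.065) and 1 to 2 when 1 library was left out. The summed Ly6c1 and Ly6c2 difference of 0.59 ran from -0.16 (p = 0.743, exact permutation test) without PAM3CSK4 replicate 4 to 0.93 without PAM3CSK4 replicate 1, and the Ly6c2 change from -0.16 to 0.92. Ly6e turned to -0.092, -0.17 and -0.055 under the common total, median centring and quantile normalization and ran from -0.13 to 0.19 with 1 library left out; Ly6i ran from -0.47 to 0.0067. Between macrophages and monocytes 2468 genes passed, and 1059 to 3252 when 1 library was left out, with 1059, 1123 and 1544 without macrophage replicates 1, 2 and 3. The 3 members past the threshold became 5 after median centring, with Ly6c1 (-1.05, adjusted p = 0.044) and Ly6e (-0.86, adjusted p = 0.025), and 3 to 4 when 1 library was left out, where Ly6c1 passed without monocyte replicate 1 (-1.10, adjusted p = 0.049). Ly6c1 also passed after quantile normalization (-1.59, adjusted p = 0.0067). Ly6a, Ly6d and Ly6c2 kept their side and direction in all 13 alternatives there. The share of calls that were higher was 55.2% in dendritic cells as deposited, 41.5% rescaled to a common total, 29.9% median centred and 35.1% quantile normalized, and 63.4%, 73.3%, 51.3% and 44.8% in macrophages. Over all genes tested, the median log2 change stood at 0.20, 0.07, -0.02 and 0.02 in the same order in dendritic cells, and 0.10, 0.26, -0.02 and -0.03 in macrophages. Causes of these shifts were not tested. Whether same-numbered libraries were paired is not known. Their deviations correlated at 0.033, 0.29, -0.12 and 0.30 in dendritic cells. There, PAM3CSK4 replicates 2 and 4 correlated best with their own number, and replicates 1 and 3 did not. In macrophages and monocytes the correlations were 0.18, 0.084 and 0.12. Each library there correlated best with its own number, a hint from the data only. With the replicate block 976 genes passed in dendritic cells and 2609 in macrophages, with 2 and 3 members. Few libraries and 28.2 to 75.2 reads per CPM limit members near 1 CPM.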
